A study of Arabidopsis thaliana with 6 samples.

Results

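The circadian clock of *Arabidopsis thaliana* is built on 10 genes that were followed here by their identifiers: the morning-phased MYB genes *CCA1* (AT2G46830) and *LHY* (AT1G01060), the pseudo-response regulators *PRR9* (AT2G46790), *PRR7* (AT5G02810), *PRR5* (AT5G24470) and *TOC1* (AT5G61380), the evening gene *GI* (AT1G22770), and the evening complex genes *ELF3* (AT2G25930), *ELF4* (AT2G40080) and *LUX* (AT3G46640). All 10 had a row among the 24340 genes with deposited values, from which they were taken by gene identifier. The SNP group held 3 samples of shoot apices collected after 24 h with 1 mM sodium nitroprusside (SNP), a compound that releases nitric oxide, in 0.025% of the wetting agent Silwet, and the Mock group held 3 samples that received Silwet without SNP. Both groups were *ap1*, *cal* double mutants in the Col-0 background, which form masses of arrested inflorescence and floral meristems in place of flowers, and were grown under 16 h of light and 8 h of dark up to 6-week inflorescences. The study's methods call the samples biological replicates and do not say how many plants went into each, and the hour of the day at which the apices were collected is not given in the sources used here. Nor is it given whether SNP and Mock apices were collected at the same hour. With 24 h as the only time, a changed level, a shifted phase and a difference in collection hour cannot be told apart.

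In plants the clock is a chain of genes that switch each other off in turn. CCA1 and LHY accumulate around dawn and repress the evening genes through a short sequence called the evening element. PRR9, PRR7 and PRR5 follow one another through the day and repress *CCA1* and *LHY*, TOC1 does so in the evening, and ELF3, ELF4 and LUX join at dusk into the evening complex, which represses *PRR9* and *PRR7* among others. GI works together with the ZTL family of blue light receptors, which bring TOC1 and PRR5 to degradation and set flowering time through *CONSTANS*. The clock of the shoot apex has been described as an especially robust one among plant organs.

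Expression was measured as TPM, the reads of a gene divided by its length and scaled to the same sum in every sample, so levels of different genes can be set side by side. The values correspond to 51879530 to 99089586 counted reads per sample, of which *TOC1* took 12790 to 26320 and *PRR9*, the gene with the fewest among the clock genes, took 22 to 32. Among Mock samples, replicate 1 stood apart by gene length: its values for genes of 2596 to 16614 exon bases, the longest of 5 classes, had a median log2 deviation of -0.43 from the average over all 6 samples, against 0.04 to 0.14 in the other samples. Of the clock genes tested below, *CCA1*, *PRR7*, *TOC1*, *GI*, *ELF3* and *LUX* belong to that class, so results are also given without Mock replicate 1 and with the trend along length removed where this changed a call. Shoot meristem markers (*STM*, *KNAT1*, *CLV1*, *CLV3*, *LFY*) summed to 301 to 344 TPM in SNP samples and 312 to 367 TPM in Mock samples, and none of the 5 was called different, with adjusted p-values from limma of 0.240 to 0.860. The 4 vascular markers summed to 75.5 to 84.1 TPM in SNP samples and 30.9 to 47.0 TPM in Mock samples, 2 of them (*SUC2* and *XCP1*) were called higher, and their part in the results below was not tested. In whole apices, fewer cells of a type and less RNA per cell cannot be told apart.

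The upstream sequences below are shown for their matches to short sequences that clock proteins or other factors are known to bind. They were read by gene identifier from the RefSeq genome TAIR10.1, 5′ to 3′ on the strand of the gene, with exact matches in capitals. The evening element, bound by CCA1, LHY and the RVE proteins, is AAAATATCT, or AGATATTTT where it lies on the opposite strand, and it stands in the stretches of *TOC1* (chr5:24674763-24674962, plus strand), *GI* (chr1:8060911-8061170, plus strand), *PRR5* (chr5:8358707-8358856, minus strand), *LUX* (chr3:17182922-17183041, plus strand) and *ELF4* (chr2:16735444-16735523, minus strand). The *PRR5* stretch holds in addition a CCA1-binding site, AAAAATCT, read on the opposite strand between both of its evening elements.
TOC1: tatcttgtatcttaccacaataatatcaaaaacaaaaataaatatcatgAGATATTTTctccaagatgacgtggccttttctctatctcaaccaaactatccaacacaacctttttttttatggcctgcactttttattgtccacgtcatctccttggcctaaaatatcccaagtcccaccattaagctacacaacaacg
GI: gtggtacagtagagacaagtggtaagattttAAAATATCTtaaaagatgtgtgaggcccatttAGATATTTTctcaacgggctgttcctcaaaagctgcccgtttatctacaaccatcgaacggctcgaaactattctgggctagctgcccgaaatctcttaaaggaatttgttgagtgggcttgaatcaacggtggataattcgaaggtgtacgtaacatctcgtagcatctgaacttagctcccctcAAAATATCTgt
PRR5: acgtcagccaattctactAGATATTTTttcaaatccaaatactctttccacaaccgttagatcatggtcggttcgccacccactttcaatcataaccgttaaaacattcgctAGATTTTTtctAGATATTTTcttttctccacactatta
LUX: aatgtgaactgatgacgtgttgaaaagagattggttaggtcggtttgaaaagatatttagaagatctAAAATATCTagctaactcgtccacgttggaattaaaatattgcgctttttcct
ELF4: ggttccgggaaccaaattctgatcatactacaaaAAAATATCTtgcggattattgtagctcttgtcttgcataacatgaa
The remaining stretches come from genes without an evening element within 1000 bases upstream. *PRR9* and *PRR7* had none either and are not shown. *CCA1* (chr2:19245371-19245430, plus strand) and *LHY* (chr1:37932-37991, minus strand) each have a G-box, CACGTG, a sequence bound by bHLH and bZIP factors. *ELF3* (chr2:11058794-11058943, plus strand) has a LUX-binding site on the opposite strand within the last bases before its annotated start.
CCA1: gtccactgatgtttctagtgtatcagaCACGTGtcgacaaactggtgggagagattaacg
LHY: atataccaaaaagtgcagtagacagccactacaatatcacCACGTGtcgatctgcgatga
ELF3: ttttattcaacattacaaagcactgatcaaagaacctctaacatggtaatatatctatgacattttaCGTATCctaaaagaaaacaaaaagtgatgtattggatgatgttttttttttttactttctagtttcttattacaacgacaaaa

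Within 1000 bases upstream of the annotated start and on both strands, the evening element occurred in 5 of the 10 clock genes, with 3 copies each in *PRR5* and *GI* and 1 each in *TOC1*, *ELF4* and *LUX*, against 7.19% of the 24184 genes with an annotated start. The CCA1-binding site occurred in 3 of the 10 (*LHY*, *PRR9* and *PRR5*) against 20.7% of genes, the G-box in 5 (*CCA1*, *LHY*, *PRR9*, *PRR7* and *LUX*) against 15.4%, and the LUX-binding site, GATACG or GATTCG, in 8 against 40.0%. *CCA1* and *PRR5* were the only clock genes without a LUX-binding match in this window. No gene carried both an evening element and a G-box except *LUX*. A match is a sequence and not a bound site. The genes with the element include *TOC1*, which rose, *GI*, whose values were lower in every SNP sample, and *PRR5*, *ELF4* and *LUX*, whose groups overlapped. Among all tested genes, those called higher, called lower and not called carried it in 8.11%, 7.17% and 7.13%.

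**Figure D1:**
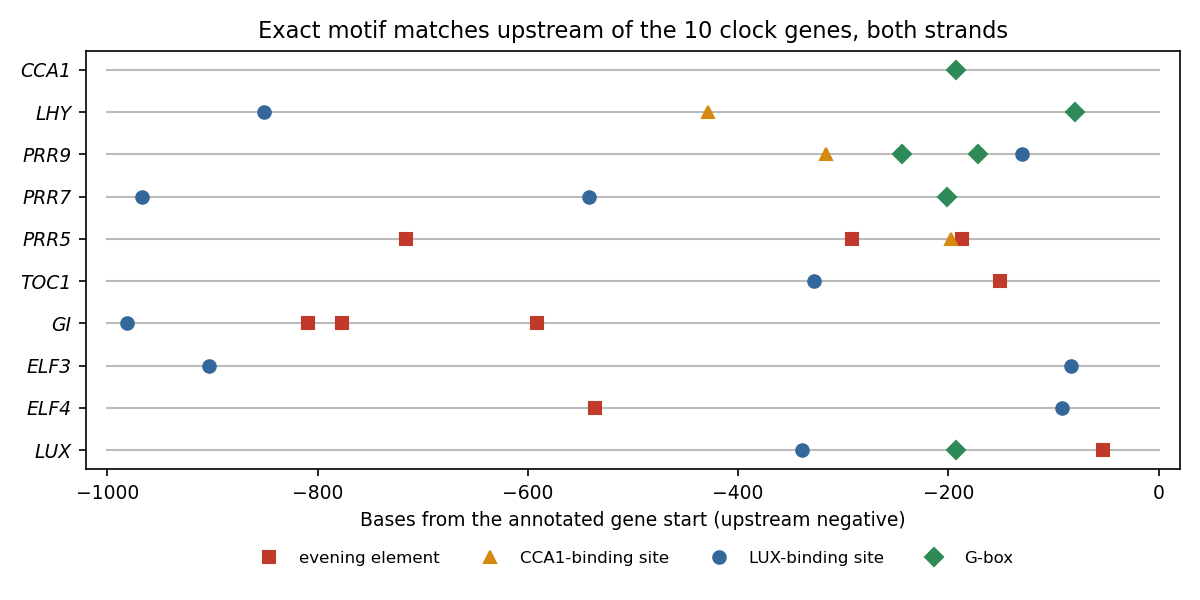
Exact matches of 4 short sequences in the 1000 bases upstream of each clock gene; the x axis gives bases from the annotated start, each row is a gene, and the symbols mark the evening element (squares), the CCA1-binding site (triangles), the LUX-binding site (circles) and the G-box (diamonds). Evening elements stand in the rows of *PRR5*, *TOC1*, *GI*, *ELF4* and *LUX*, and G-boxes in those of *CCA1*, *LHY*, *PRR9*, *PRR7* and *LUX*.

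To see how the clock genes responded to the nitric oxide donor, the SNP samples were compared with the Mock samples by limma on log2(TPM + 0.5), with p-values adjusted over the 18966 genes that had a mean of at least 0.5 TPM. *TOC1* rose 1.75-fold and was the only clock gene called at an adjusted p under 0.05, 1 of the 8 that passed the filter, while across all tested genes 16.6% were called higher. None of the 8 was called lower, against 13.0% of all tested genes, and 1 passed the fold change of 1.5 with an unadjusted p under 0.01 that the study used as its limit, against 16.9%. *GI* and *ELF3* missed the threshold with adjusted p-values of 0.0537 and 0.0733 although their groups did not overlap. Before adjustment the limma p-values of *GI* and *ELF3* were 0.0165 and 0.0255. The share of all tested genes under 0.05 before adjustment was not computed. Non-overlapping groups were found in 3 of the 8, *TOC1*, *GI* and *ELF3*, which is no more than the 51.2% among all tested genes. The median log2 fold change of the 8 was -0.05, against 0.06 for all tested genes. All of these are differences at the unknown hour of collection, and a shift of phase was not tested. *LHY* and *PRR9* had means under 0.5 TPM and were not tested.

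**Figure D2:**
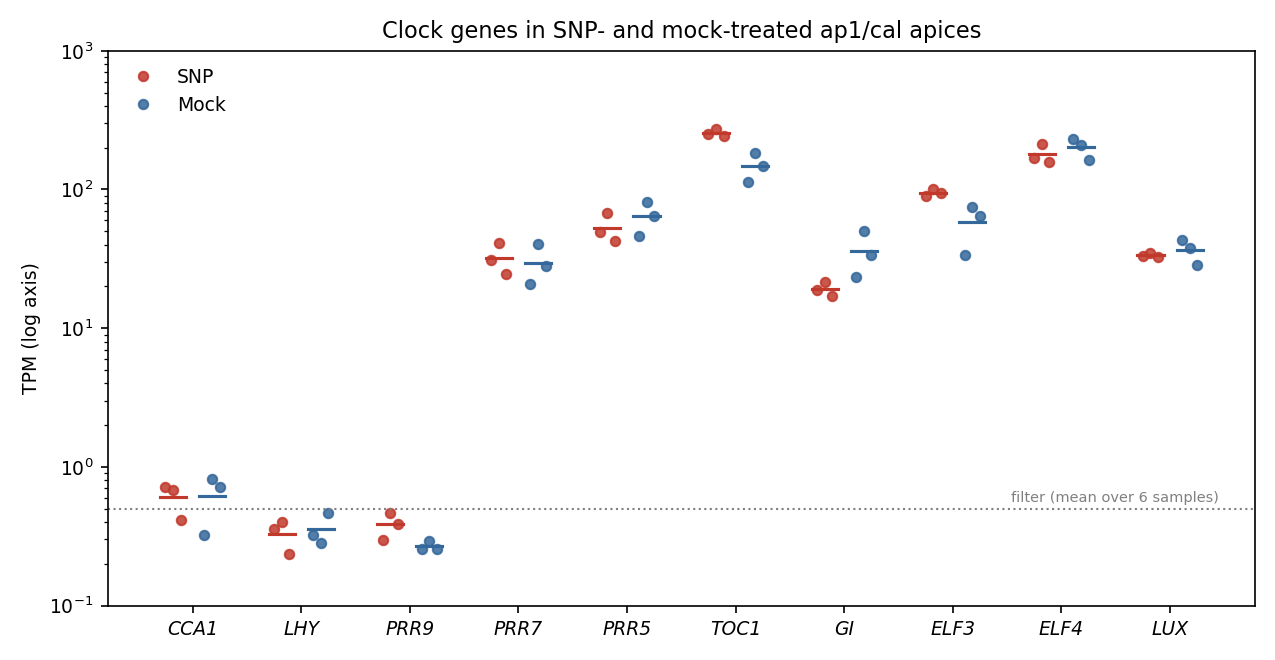
TPM of the 10 clock genes on a log axis, with a point for each of the 3 SNP samples (red) and the 3 Mock samples (blue) in the order of their replicate numbers and a bar at the mean of each group. The dotted line is the filter of 0.5 TPM, under which *LHY* and *PRR9* lay in the mean, and *TOC1*, *GI* and *ELF3* are the tested genes whose groups did not overlap.

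The morning genes were close to silent in both groups at the hour of collection, which is not known. *CCA1*, a MYB repressor that opens the daily cycle, had 0.72, 0.69 and 0.41 TPM in SNP samples, against 0.32, 0.81 and 0.72 TPM in Mock samples. These values rest on 35 to 115 reads per sample, the groups overlapped throughout, and the fitted log2 fold change of *CCA1* was 0.00 with a 95% interval of -0.54 to 0.54 (limma adjusted p = 1.00). *LHY*, its close relative and partner, had 0.36, 0.40 and 0.24 TPM in SNP samples, against 0.32, 0.28 and 0.46 TPM in Mock samples. Without the filter the log2 fold change of *LHY* was -0.04 (limma adjusted p = 0.817). Changes within the interval of *CCA1* could not be told from no change, and what set its width was not tested. The SE of *CCA1* was 0.23, against 0.373 with a pseudocount of 0.1 and 0.158 with a pseudocount of 1.

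The daytime PRR genes came next in the chain and spanned the widest range of levels. *PRR9*, which represses *CCA1* and *LHY* in the morning, was as low as its targets, with 0.30, 0.47 and 0.39 TPM in SNP samples and 0.26, 0.29 and 0.26 TPM in Mock samples. Every SNP value of *PRR9* lay above every Mock value, but the nearest values, 0.30 and 0.29 TPM, rest on 24 and 30 reads. Without the filter its log2 fold change was 0.20 (limma adjusted p = 0.131). The ratio of its mean TPM, SNP over Mock, was 1.44. The fitted change is smaller than this ratio, since the 0.5 added before the logarithm shrinks changes at such low levels. *PRR7*, active around midday, had 31.1, 41.2 and 24.5 TPM in SNP samples, against 20.8, 40.2 and 28.0 TPM in Mock samples. The groups of *PRR7* overlapped, with a log2 fold change of 0.14 ± 0.27 (SE, n = 3 each) and a 95% interval of -0.50 to 0.78 (limma adjusted p = 0.729). *PRR5*, active in the afternoon, had 49.1, 67.9 and 42.6 TPM in SNP samples, against 46.1, 80.9 and 64.7 TPM in Mock samples. Its log2 fold change was -0.25 ± 0.24 (SE, n = 3 each), with a 95% interval of -0.82 to 0.32 (limma adjusted p = 0.463).

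*TOC1*, the evening PRR gene and a repressor of *CCA1* and *LHY*, had 249.9, 271.6 and 244.9 TPM in SNP samples, against 113.7, 183.6 and 147.2 TPM in Mock samples. All 3 SNP samples lay within a narrow band above the highest Mock sample, and the mean was 255.5 ± 14.2 TPM in SNP samples and 148.1 ± 35.0 TPM in Mock samples (SD, n = 3 each). The log2 fold change of *TOC1* was 0.81 ± 0.17 (SE), with a 95% interval of 0.41 to 1.21 and an adjusted p of 0.0127 from limma. The two-sided exact permutation test of *TOC1* alone gave p = 0.1, the smallest value that 3 against 3 samples allow. In the 17 other fits the log2 fold change of *TOC1* ranged over 0.63 to 0.98 and its adjusted p from limma over 0.00169 to 0.0487, so that it kept the call in each, including those without Mock replicate 1 (0.63) and with the length trend removed (0.70).

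*GI*, which encodes a large nuclear protein that links the clock to flowering, had lower values in every SNP sample. It had 18.9, 21.6 and 17.0 TPM in SNP samples, against 23.2, 50.2 and 33.8 TPM in Mock samples. The Mock samples were spread over a wide range while the SNP samples lay close together below them, with means of 19.2 ± 2.29 TPM in SNP samples and 35.7 ± 13.6 TPM in Mock samples (SD, n = 3 each). The log2 fold change of *GI* was -0.82 ± 0.26 (SE), with a 95% interval of -1.44 to -0.20, and its limma adjusted p of 0.0537 missed the threshold. Of the 17 other fits, 6 called *GI* lower. Without Mock replicate 1, its lowest Mock sample, the log2 fold change was -1.09 (limma adjusted p = 0.00455), with the length trend removed it was -1.02 (limma adjusted p = 0.00151), and without Mock replicate 2, its highest, it was -0.54 (limma adjusted p = 0.0844).

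None of the 3 evening complex genes was called. *ELF3*, the scaffold of the complex, had 89.2, 100.5 and 94.0 TPM in SNP samples, against 33.7, 74.96 and 64.8 TPM in Mock samples. Mock replicate 1 lay far below the other Mock samples of *ELF3*, and all 3 SNP samples lay above the highest Mock sample, with means of 94.5 ± 5.70 TPM in SNP samples and 57.8 ± 21.5 TPM in Mock samples (SD, n = 3 each). The log2 fold change of *ELF3* was 0.78 ± 0.28 (SE), with a 95% interval of 0.13 to 1.44, and its limma adjusted p of 0.0733 missed the threshold. Of the 17 other fits, 5 called *ELF3* higher. Leaving out Mock replicate 1 lowered the log2 fold change of *ELF3* to 0.44 and its spread with it (limma adjusted p = 0.00932), with the length trend removed it was 0.67 (limma adjusted p = 0.0202), and without Mock replicate 2 it was 1.01 (limma adjusted p = 0.0409).

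*ELF4*, a small protein that carries ELF3 into the nucleus, had 169.1, 212.8 and 158.5 TPM in SNP samples, against 230.9, 210.2 and 163.9 TPM in Mock samples. *LUX*, the MYB-like factor that binds DNA for the complex, had 33.4, 35.1 and 32.7 TPM in SNP samples, against 43.0, 37.8 and 28.7 TPM in Mock samples. The groups of both genes overlapped. The log2 fold change was -0.16 ± 0.16 (SE, 95% interval -0.55 to 0.23) for *ELF4* and -0.09 ± 0.15 (SE, 95% interval -0.45 to 0.26) for *LUX*, with limma adjusted p-values of 0.493 and 0.665. Both intervals end below the fitted log2 fold change of *TOC1*, 0.81, as do those of *CCA1*, *PRR7* and *PRR5*. The interval of *TOC1* itself was 0.41 to 1.21, and differences between these genes were not tested. *LUX* shares 1507 bases with AT3G46650 on the opposite strand, whose mean was 0.018 TPM, and *ELF3* shares 24 bases with AT2G25940 on the opposite strand, at 0.45 TPM. *ELF3* also shares 183 bases with AT2G08135 on the opposite strand, a gene without a row among the deposited values.

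**Figure D3:**
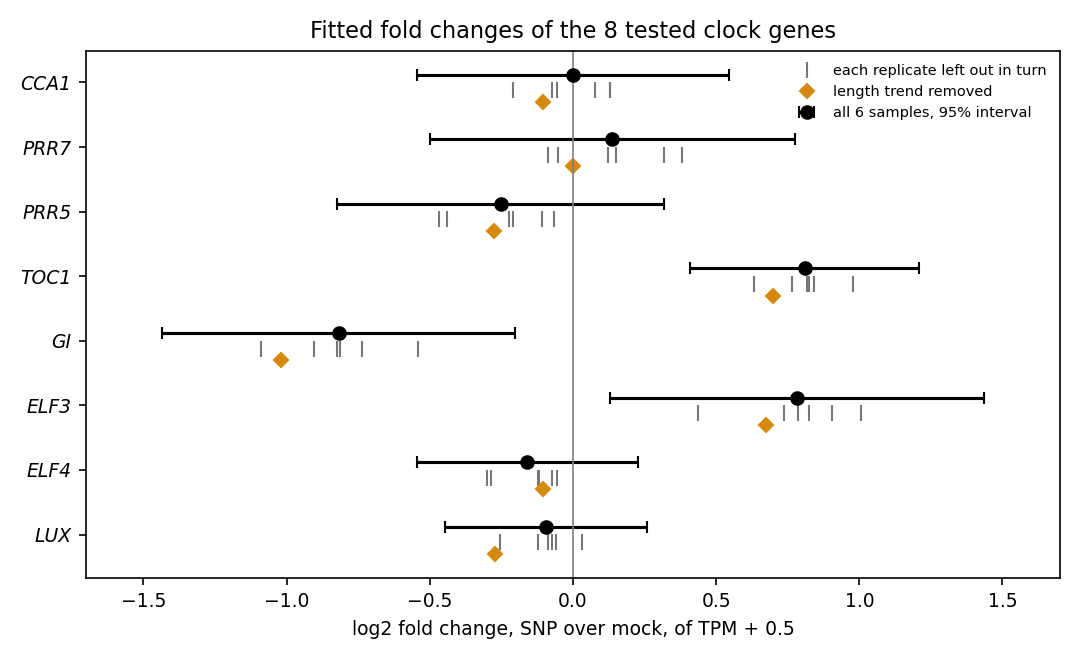
Log2 fold changes of SNP over Mock for the 8 tested clock genes, with 95% intervals (black points and bars), the values with each replicate left out in turn (grey ticks) and the value with the trend along gene length removed (orange diamonds). *TOC1* stayed between 0.63 and 0.98 with each replicate left out, *ELF3* between 0.44 and 1.01 and *GI* between -1.09 and -0.54, and the intervals of the other 5 genes include 0.

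Because the level of each gene varied among replicates, the clock genes were also set against each other within a sample. These pairs were picked with the values in view, and no test is given for them. In Mock replicate 1, ratios between genes of unlike length also carry its trend along gene length, which was not removed here. The ratio of *TOC1* to *GI* was 13.2, 12.6 and 14.4 in SNP samples, against 4.89, 3.66 and 4.36 in Mock samples. The ratio of *ELF3* to *GI* was 4.71, 4.65 and 5.51 in SNP samples, against 1.45, 1.49 and 1.92 in Mock samples. Within each group these ratios varied less than *GI* did, and the lowest SNP ratio lay above the highest Mock ratio by a wide margin for both pairs. *TOC1* over *PRR5*, both PRR genes of the later day, was 5.09, 4.002 and 5.75 in SNP samples, against 2.47, 2.27 and 2.28 in Mock samples. *PRR5* over *GI* was 2.59, 3.14 and 2.50 in SNP samples, against 1.98, 1.61 and 1.92 in Mock samples. *TOC1* over *ELF3*, in contrast, was 2.80, 2.70 and 2.61 in SNP samples, against 3.38, 2.45 and 2.27 in Mock samples, so the groups overlapped around the same mean. *LUX* over *ELF4* overlapped as well, with means of 0.1895 ± 0.0217 in SNP samples and 0.1804 ± 0.0055 in Mock samples (SD, n = 3 each).

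**Figure D4:**
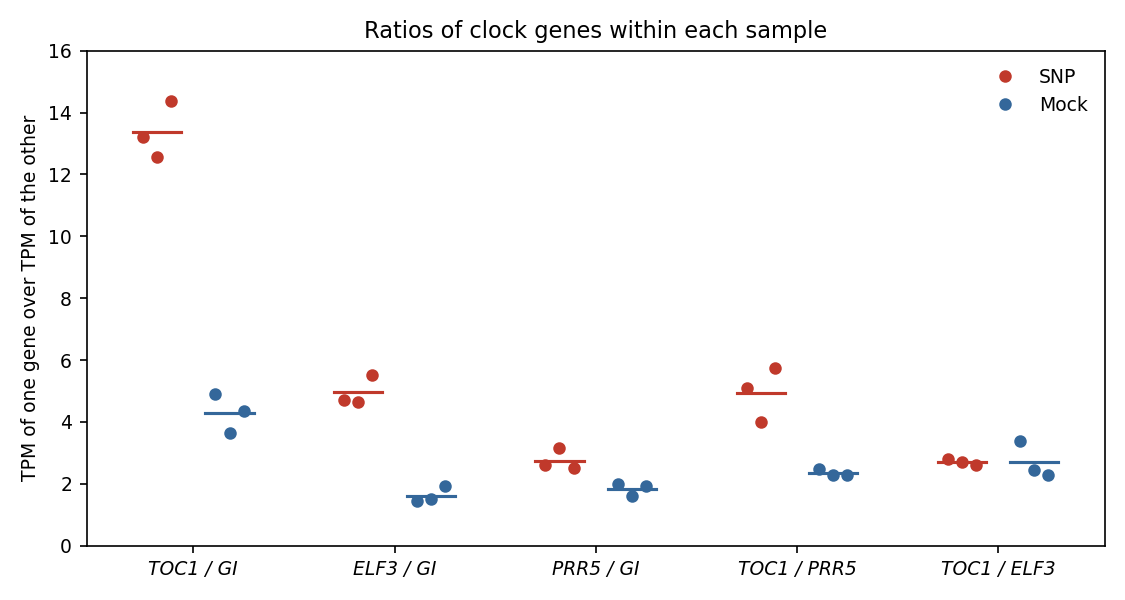
Ratios of the TPM of clock gene pairs within each sample, with a point per SNP sample (red) and Mock sample (blue) and a bar at each group's mean. *TOC1* over *GI* averaged 13.4 in SNP samples and 4.30 in Mock samples, whereas *TOC1* over *ELF3* averaged 2.70 in both groups with overlapping points.

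The order of the levels differed between the groups for several neighbours. Levels are as deposited, so those of Mock replicate 1 carry its trend along gene length. In SNP samples the clock genes ran from *TOC1* (mean 255.5 TPM) over *ELF4* (180.1), *ELF3* (94.5), *PRR5* (53.2), *LUX* (33.7), *PRR7* (32.3) and *GI* (19.2) down to *CCA1* (0.605), *PRR9* (0.385) and *LHY* (0.331). In Mock samples *ELF4* (mean 201.7 TPM) stood first, followed by *TOC1* (148.1), *PRR5* (63.9), *ELF3* (57.8), *LUX* (36.5), *GI* (35.7), *PRR7* (29.7), *CCA1* (0.619), *LHY* (0.357) and *PRR9* (0.267). *TOC1* exceeded *ELF4* in 3 of 3 SNP samples and in none of the 3 Mock samples, and *PRR7* exceeded *GI* in 3 of 3 SNP samples and in none of the 3 Mock samples. Neighbours in this order whose values overlapped were *LUX* with *PRR7*, *CCA1* with *PRR9* and *PRR9* with *LHY* in SNP samples, and *ELF4* with *TOC1*, each adjacent pair from *PRR5* to *PRR7*, *CCA1* with *LHY* and *LHY* with *PRR9* in Mock samples. In both groups the lowest of the 7 evening and daytime genes lay far above *CCA1*, *LHY* and *PRR9*.

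The replicates of a group were also not alike in their clock genes. SNP replicate 2 held the highest of the SNP values in 7 of the 8 tested clock genes, against 47.3% of all tested genes, and SNP replicate 3 held the lowest in 7 of 8, against 28.3%. Among Mock samples, replicate 2 was highest in 6 of 8, against 41.0% of all tested genes, and replicate 1 lowest in 6 of 8, against 55.4%. *CCA1* in the SNP group, where replicate 1 was highest, and *ELF4* and *LUX* in the Mock group, where replicate 1 was highest, were the exceptions. *ELF3* in the SNP group had its lowest value in replicate 1. The genes share their libraries, so these counts describe the samples and are not independent observations.

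Beyond the 10 genes, 35 further clock genes were followed, and of the 33 that passed the filter 10 rose and 3 fell in SNP samples, a called share of 39.4%, where 16.6% of all tested genes were higher and 13.0% lower. Their median log2 fold change was 0.32, against 0.06 for all tested genes. The count of higher genes was 6 without SNP replicate 2, 5 without SNP replicate 1 or Mock replicate 3, and 4 without SNP replicate 3, which also left 1 gene called lower. *RVE1*, *RVE4*, *RVE8*, *LNK1* and *ELF4-L2* were called in every fit run. Among the RVE genes, relatives of *CCA1* and *LHY*, the activators *RVE4* and *RVE8* and their relative *RVE5* rose. *RVE4* had 45.0, 49.8 and 42.8 TPM in SNP samples, against 21.5, 26.6 and 23.4 TPM in Mock samples, a log2 fold change of 0.93 ± 0.11 (SE, limma adjusted p = 0.00157). *RVE8* had 2.63, 2.56 and 2.43 TPM in SNP samples, against 1.48, 1.40 and 1.19 TPM in Mock samples, with a log2 fold change of 0.72 (limma adjusted p = 0.00785). The SNP values of both genes lay well apart from the Mock values, and *RVE6*, another close relative, missed the threshold with a log2 fold change of 0.34 (limma adjusted p = 0.0589). *RVE5* had a log2 fold change of 0.63 (limma adjusted p = 0.0125), which missed the threshold without SNP replicate 1 (0.61, adjusted p = 0.0567) or SNP replicate 3 (0.63, adjusted p = 0.0542).

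*LNK1*, a coactivator that works with RVE4 and RVE8 on evening genes, fell. It had 3.45, 3.89 and 2.23 TPM in SNP samples, against 6.84, 7.95 and 7.56 TPM in Mock samples, a log2 fold change of -1.14 ± 0.19 (SE, limma adjusted p = 0.00613). The change of the coactivator was opposite in sign to that of *RVE4* and *RVE8*. *LNK2* and *LNK3* were not called, with log2 fold changes of 0.12 and 0.20, and *LNK4* was under the filter. *LNK1* shares 245 bases with AT5G64160 and *RVE5* shares 681 bases with AT4G01290 on the opposite strand, at 35.9 and 47.6 TPM, and whether the counting used strand is not given in the sources used here. *RVE1*, a morning MYB factor that promotes auxin production, had the largest change of the list. It had 13.7, 23.4 and 14.9 TPM in SNP samples, against 1.82, 5.33 and 3.88 TPM in Mock samples, a log2 fold change of 2.15 ± 0.36 (SE, limma adjusted p = 0.00566). *RVE1* shares 225 bases with AT5G17305 on the opposite strand, which has no row among the deposited values. Every SNP sample of *RVE1* lay far above the highest Mock sample. Its relative *RVE2* had a log2 fold change of 0.84 (limma adjusted p = 0.0333), lost without Mock replicate 3 (0.96, adjusted p = 0.0518), SNP replicate 2 (0.71, adjusted p = 0.110) or SNP replicate 3 (0.82, adjusted p = 0.105).

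Of the relatives of the clock genes, *ELF4-L2* rose (68.7, 60.2 and 63.6 TPM in SNP samples, against 43.2, 41.3 and 31.9 TPM in Mock samples, log2 fold change 0.73, limma adjusted p = 0.00735), while *ELF4* itself was not called, a difference between them that was not tested. *BOA*, the closest relative of *LUX*, was called higher with a log2 fold change of 0.35 (limma adjusted p = 0.0345), but 11 of the other fits, every fit without an SNP replicate among them, did not call it, with adjusted p-values up to 0.445. *PRR3*, the fifth PRR gene, whose protein stabilises TOC1, was not called (log2 fold change 0.18, limma adjusted p = 0.449). The 3 genes of the ZTL family were not called either: *ZTL*, the receptor that targets TOC1 and PRR5 for degradation, had 57.3, 61.6 and 58.0 TPM in SNP samples, against 30.1, 51.1 and 41.1 TPM in Mock samples (log2 fold change 0.56, limma adjusted p = 0.0567). *LKP2* and *FKF1* had log2 fold changes of 0.40 and -0.29 (limma adjusted p = 0.0610 and 0.157). Among 14 further regulators, *COR27*, *JMJ30* and *SKIP* were called higher and *TCP21* and *XCT* lower, with log2 fold changes between -0.45 and 0.57. *JMJ30* (a histone demethylase) and *SKIP* (a splicing factor) had log2 fold changes of 0.47 and 0.46, and *TCP21*, which represses *CCA1*, had -0.45 (limma adjusted p = 0.0217, 0.0180 and 0.00770). Each of these 5 calls was lost in at least 1 fit with a replicate left out, all 5 of them without SNP replicate 3, where the adjusted p-values lay between 0.0503 and 0.0948. The evening element was found upstream of 4 of the 35 genes (11.4%), *RVE7*, *BOA*, *FKF1* and *COR27*.

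**Figure D5:**
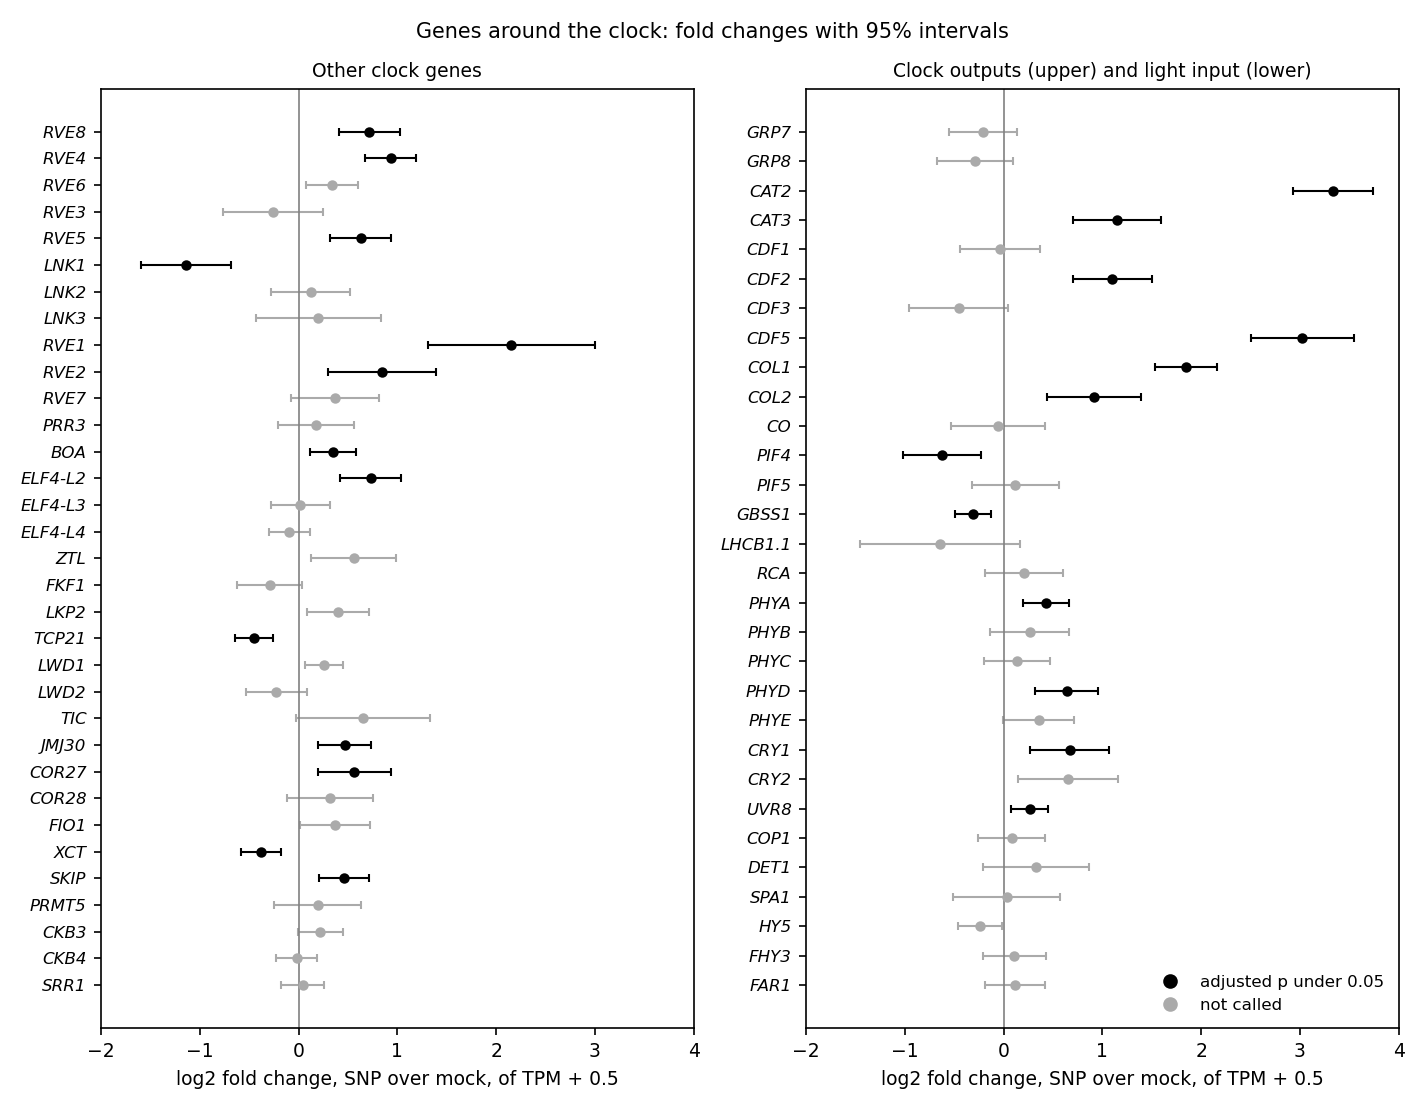
Log2 fold changes of SNP over Mock with 95% intervals for the tested other clock genes (left) and for clock output and light input genes (right), black where the adjusted p was under 0.05 and grey otherwise. *RVE1* (2.15) and *LNK1* (-1.14) stand out on the left, and *CAT2* (3.34) and *CDF5* (3.03) on the right.

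Of 17 genes known as outputs of the clock, 16 passed the filter, 6 rose and 2 fell, where 16.6% of all tested genes were higher and 13.0% lower. Their median log2 fold change was 0.04, against 0.06 for all tested genes. *CAT2*, a catalase gene with a morning peak, had 164.7, 238.8 and 215.4 TPM in SNP samples, against 16.5, 22.7 and 20.4 TPM in Mock samples, a log2 fold change of 3.34 ± 0.17 (SE, limma adjusted p = 5.8e-05). *CAT3*, the evening-phased catalase gene, had 1342, 1428 and 1316 TPM in SNP samples, against 453.9, 748.5 and 684.6 TPM in Mock samples, with a log2 fold change of 1.15 (limma adjusted p = 0.00549). Both catalase genes, of opposite phase, were higher in every SNP sample. Catalase also removes hydrogen peroxide and is not only a clock output. *CDF5* and *CDF2* encode repressors of *CONSTANS*. *CDF5* had 32.3, 25.4 and 30.3 TPM in SNP samples, against 3.48, 4.16 and 2.12 TPM in Mock samples, a log2 fold change of 3.03 ± 0.22 (SE, limma adjusted p = 0.000238), and shares 1241 bases with AT1G69572 on the opposite strand, which was not analysed here. *CDF2* had a log2 fold change of 1.098 (limma adjusted p = 0.00432), while *CDF1* and *CDF3*, of the same family, had log2 fold changes of -0.04 and -0.45 and were not called.

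*COL1* and *COL2*, relatives of *CONSTANS*, rose as well, *COL1* with 11.1, 12.6 and 12.6 TPM in SNP samples, against 3.04, 3.45 and 2.58 TPM in Mock samples (log2 fold change 1.84, limma adjusted p = 0.00023) and *COL2* with a log2 fold change of 0.92 (limma adjusted p = 0.0151). Both genes overlap genes on the opposite strand. *COL1* shares 1807 bases with AT5G15845, which has no row among the deposited values. *COL2* shares 771 bases with AT3G02370, at 9.46 TPM, and 688 bases with AT3G02390, which has no row either. *CO* (*CONSTANS*) itself stayed at 1.20 to 1.73 TPM in SNP samples and 1.21 to 2.11 TPM in Mock samples (log2 fold change -0.06, limma adjusted p = 0.854), and its target *FT* was under the filter. *PIF4*, a growth-promoting bHLH gene that the evening complex represses, fell to 0.86, 1.01 and 1.23 TPM in SNP samples, against 1.53, 2.08 and 1.997 TPM in Mock samples (log2 fold change -0.62, limma adjusted p = 0.0292). *GBSS1*, a starch synthase gene controlled by CCA1 and LHY, fell with a log2 fold change of -0.31 (limma adjusted p = 0.0236). *GRP7*, an RNA-binding protein gene with an evening peak and the most abundant of these outputs, had 7602, 7152 and 7875 TPM in SNP samples, against 9293, 9262 and 7767 TPM in Mock samples, overlapping groups with a log2 fold change of -0.21 (limma adjusted p = 0.304). Evening elements stood upstream of 4 of the 17 outputs (23.5%), namely *GRP7*, *GRP8*, *CAT3* and *COL2*, of which 2 rose and 2 were not called.

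Light reaches the clock through the phytochromes and cryptochromes. Of 14 light input genes all were tested, and 4 rose, *CRY1*, *PHYD*, *PHYA* and *UVR8*, and none fell, with *HY5* lower at an unadjusted limma p of 0.0367. The called share of 28.6%, all of it higher, stands against 16.6% called higher over all tested genes, and the absence of lower calls against 13.0%. *CRY1*, a blue light receptor, had 66.9, 67.3 and 70.1 TPM in SNP samples, against 32.3, 51.3 and 46.8 TPM in Mock samples, a log2 fold change of 0.67 (limma adjusted p = 0.0246). *PHYD* and *PHYA*, red and far-red light receptors, had log2 fold changes of 0.64 and 0.43 (limma adjusted p = 0.0135 and 0.0177). All 4 calls were lost without SNP replicate 3, with adjusted p-values of 0.0656 to 0.183, and those of *PHYA* and *UVR8* also when the length trend was removed (0.19 and 0.20, adjusted p = 0.407 and 0.160). *UVR8* also lost its call under 75th percentile scaling (adjusted p = 0.230), under median-of-ratios scaling (adjusted p = 0.145) and with eBayes without a trend (adjusted p = 0.0685). The median log2 fold change of the 14 genes was 0.26 with all samples, 0.055 without Mock replicate 1 and 0.11 with the length trend removed, against 0.06 for all tested genes as deposited. *ELF3*, *CRY1*, *ZTL* and *CRY2* shared the low value in Mock replicate 1, which was 33.7, 32.3, 30.1 and 71.5 TPM, against 64.8 to 74.96, 46.8 to 51.3, 41.1 to 51.1 and 118.2 to 125.3 TPM in the other Mock samples. They were picked with their values in view, and Mock replicate 1 was the lowest Mock sample in 55.4% of all tested genes.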

How the data were processed

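RNA from 3 SNP-treated and 3 Mock-treated *ap1/cal* apex samples was sequenced by the authors as poly(A)-selected, strand-specific libraries and aligned to TAIR10 with STAR. The authors deposited TPM per gene and sample. The counting tool, its use of strand and the gene lengths are not given in the sources used here. The deposited log2 fold changes and p-values of the authors' own comparison were not used.

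Genes that averaged at least 0.5 TPM were tested with limma 3.58.1 in R 4.3.3 (lmFit, eBayes with trend) on log2(TPM + 0.5), without a block and with Benjamini-Hochberg adjustment over all 18966 tested genes. Fold changes on this scale understate changes of low genes. Single clock genes were compared by a two-sided exact permutation test. The limma step was tested on simulated data. Tables were made with pandas 2.3.3 and numpy 2.4.6 under Python 3.11.15. Depth was read from TPM multiplied by the merged exon length in the RefSeq annotation TAIR10.1, available for 24184 genes, and 99.4% of these products were whole multiples of 1 step per sample, within 0.05. Read numbers given are such multiples, and no count model was run on them. Upstream sequences were read from TAIR10.1 with its own annotation, since the deposited table holds no coordinates, and matched by gene identifier.

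Groups and replicate numbers were taken from the sample labels. Alternatives were pseudocounts of 0.1 and 1, no filter or a mean of 1 TPM, median-of-ratios and 75th percentile scaling, eBayes without trend or robust, a replicate block, each replicate left out, removal of the trend along exon length (lowess, span 0.3) with and without that block, and the study's criterion. Named are all 10 clock genes and, from the other lists, up to 5 called genes with the largest absolute log2 fold change with values; other genes of these lists given with values were chosen after their values were seen. The clock genes, the lists and the named tests were chosen with earlier results of these data known.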

Additional observations from a re-analysis of the deposited data

How the results depend on the processing

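*TOC1* kept its direction and call in all 17 alternatives. The count of clock genes called lower was 1 (*GI*) in place of 0 under 75th percentile scaling, under median-of-ratios scaling, with the length trend removed, with the replicate block and with both of these, and 0 to 1 with a replicate left out. The count called higher was 2 (*TOC1* and *ELF3*) with the length trend removed, with the replicate block and with both, and 1 to 2 with a replicate left out. By the study's criterion 2 clock genes passed under either scaling, 3 with the length trend removed, with the replicate block or with both, and 1 to 2 with a replicate left out. The share of all tested genes past it in these fits was not computed. Of all tested genes 3152 were called higher and 2467 lower as deposited. These counts were 3846 and 3473 with the length trend removed, 3138 and 2352 with the block, and 3706 and 3304 with both. They were 2798 and 3183 under 75th percentile scaling and 3061 and 2863 under median-of-ratios scaling. The replicate numbers share no stated plants or day. Samples with equal numbers had correlations of deviations of 0.304, -0.00172 and -0.091, and those with unequal numbers ranged from -0.289 to 0.317. Such values from groups of 3 cannot show whether the samples were paired, so the replicate block is given only as an alternative.

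With a replicate left out, all genes called ranged over 1753 to 3920 higher and 1130 to 4004 lower, and the other clock genes over 4 to 14 higher and 1 to 3 lower. By the study's criterion 1991 genes were higher and 1214 lower, and 6 and 1 of the other clock genes. Of the called genes 56.1% were higher as deposited and 46.8% under 75th percentile scaling, with medians over all tested genes of 0.06 and -0.03. The fold change of *CCA1*, 0.00 as fitted, was -0.0404 under 75th percentile scaling, -0.11 with the length trend removed, with or without the block, -0.0222 under median-of-ratios scaling, -0.0041 with a pseudocount of 1, and -0.209 to 0.131 with a replicate left out, below 0 without Mock replicate 1, SNP replicate 1 or SNP replicate 2. With a replicate left out, *PRR7* ranged over -0.0874 to 0.379, below 0 without Mock replicate 1 or SNP replicate 2, and *LUX* over -0.255 to 0.0324, above 0 without Mock replicate 1, and neither was called. Over the 8 tested clock genes, 113 of 135 values under an alternative kept direction and call, 11 gained a call and 11 changed sign. With the block *UVR8* lost its call (adjusted p = 0.0888). The cause of these differences between fits was not tested, and fits without a replicate also hold fewer samples.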
